A study of Rattus norvegicus with 6 samples.

Results

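The genes described here are 9 established transcriptional targets of p53 that act in cell cycle arrest and the response to DNA damage (Cdkn1a, Mdm2, Ccng1, Btg2, Phlda3, Gadd45a, Rrm2b, Zmat3 and Trp53inp1), out of 17048 rows in each count table. They were taken by gene symbol, which found 8 of them, and Trp53inp1 was found under its other symbol Tp53inp1. The list was chosen by the known role of each gene, after Cdkn1a had been seen to differ between “High” and the other films in the counts of these same libraries. The question put to the data was whether the other p53 targets moved with Cdkn1a. Because every contrast with High was in view when the genes were chosen, their differences against High are given as measurements, and no test of them is read as support. The samples were 6 RNA-seq libraries of wild-type rat neural stem/progenitor cells (NSPCs), taken from the telencephalon of Sprague-Dawley embryos and cultured for 24 h in stemness-maintaining medium on carbon films of carbon nanotubes and graphene oxide nanoribbons. There were 2 libraries for each of the “High”, “Medium” and “Low” films, which differ in electrical conductivity. The conductivity was set by the oxidation time of the carbon. The paper also describes a poly-D-lysine coating that was adjusted by film to match the laminin bound, so conductivity is not the only difference between films. The study treats Medium and Low as neural tissue-like and High as supraphysiological, and all 3 groups lie on carbon film, so that none is a film-free control. Neither the labels nor the methods say whether 2 libraries of a film came from separate cell preparations, and the spread between them may be technical.

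p53 is a transcription factor that is held at a low protein level by the ubiquitin ligase Mdm2 and is stabilized after DNA damage and other stress. It then switches on genes that stop the cell cycle, repair DNA or start cell death, among them Mdm2 itself, which closes a feedback loop. Cdkn1a encodes p21, an inhibitor of cyclin-dependent kinases, and is also known to be induced through routes that do not need p53.

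Total counts were 5478066 and 5412882 on High, 5124863 and 5914540 on Medium and 6213676 and 5460031 on Low. Values are given as CPM, the counts of a gene divided by the TMM-scaled size of its library. The libraries were made with QuantSeq, a method that reads only transcript 3′ ends, so that a count stands for a transcript end whatever the gene's length. Medium replicate 1 stood apart, with a count in 5355 rows against 6689 to 7809 in the other 5 libraries, and 1882 rows were at 0 there with at least 50 counts in Medium replicate 2, against 202 to 857 such rows in the others. Replicates of a film correlated (Pearson, log2(CPM + 1), rows tested) at 0.617 on High, 0.607 on Medium and 0.638 on Low. Of the 9 genes, 7 had enough counts for the fit across all rows. Rrm2b, a ribonucleotide reductase subunit for DNA repair, had a single count, in High replicate 1. Tp53inp1, a p53 cofactor that promotes cell death, had 17 counts, all in Medium replicate 2. At this depth a count of 0 allows up to 0.716 CPM in the library with the highest such limit, counting error only, so neither gene can be compared between films. In the “High” group the order of the mean levels was Cdkn1a (1520 CPM), Ccng1 (614), Mdm2 (412), Zmat3 (286), Btg2 (252), Gadd45a (153) and Phlda3 (144), in which Zmat3 and Btg2 overlapped, as did Gadd45a and Phlda3. In Low, Cdkn1a (598) and Ccng1 (587) overlapped, and Ccng1 (454) and Cdkn1a (474) did so in Medium.

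The promoter sequences show which of these genes carry a match to the p53 response element next to the annotated start. Binding of p53 was not measured. The element is made of 2 copies of a 10-base p53 consensus unit. RefSeq promoters (GRCr8, 250 bases before to 50 after the annotated start) were found for 6 of the 9 genes, Cdkn1a, Mdm2, Ccng1, Btg2, Phlda3 and Gadd45a. A match of 2 units without a spacer and with at most 1 base off the consensus was present in 2 of the 6, Cdkn1a and Ccng1. It was present in 21 of 27457 rat promoters (0.0765%). Both sequences are shown because these are the members whose promoters carry such a match. They are read 5′ to 3′ along the gene, with the 20-base match in capitals.
Cdkn1a, chr20:7150682-7150981, plus strand: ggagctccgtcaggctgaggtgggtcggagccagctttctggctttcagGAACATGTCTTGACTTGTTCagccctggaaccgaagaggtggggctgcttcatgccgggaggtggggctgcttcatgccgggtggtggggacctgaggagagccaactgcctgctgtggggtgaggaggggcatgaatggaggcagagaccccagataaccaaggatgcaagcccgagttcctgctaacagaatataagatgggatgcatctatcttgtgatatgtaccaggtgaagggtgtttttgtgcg
Ccng1, chr10:25684827-25685126, minus strand: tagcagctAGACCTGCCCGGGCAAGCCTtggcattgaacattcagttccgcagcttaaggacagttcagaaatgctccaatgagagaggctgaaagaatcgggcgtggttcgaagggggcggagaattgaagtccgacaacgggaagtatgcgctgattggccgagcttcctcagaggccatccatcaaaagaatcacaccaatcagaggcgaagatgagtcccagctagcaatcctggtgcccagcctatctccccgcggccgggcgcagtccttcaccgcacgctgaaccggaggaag

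A single 10-base unit that fits the consensus without a mismatch was present in 3 of the 6 promoters (Cdkn1a, Ccng1 and Gadd45a) and in 2165 of 27457 rat promoters (7.89%). The windows of Mdm2, Btg2 and Phlda3 held neither. These matches describe 300 bases only, and p53 elements known to lie further away or in introns, such as that of Mdm2, are outside them.

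Cdkn1a had the highest level of the 9 genes in the “High” group and the clearest difference between the films. It was at 1607 and 1432 CPM on High, 446 and 501 on Medium and 514 and 682 on Low. Both High libraries lay far above the other 4, and the replicates of a film differed by at most 1.33-fold. The mean in High was 3.21-fold that in Medium and 2.54-fold that in Low, and the log2 fold change of Low and Medium together against High was −1.51 (standard error 0.22). A row is called here where edgeR's quasi-likelihood test gave it a Benjamini-Hochberg adjusted p below 0.05. In the contrast of Low and Medium with High, 1 of the 7 genes (Cdkn1a) was called, beside 0.129% of all 7729 rows. The contrast was in view when the genes were chosen, so this count restates the choice and nothing is read from it. Scaled by library sizes alone, the log2 fold change of Cdkn1a was −1.13 and it was not called. Under TMM, edgeR's test did not call it for Low against High (adjusted p 0.271) or Medium against High (adjusted p 0.138).

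**Figure D1:**
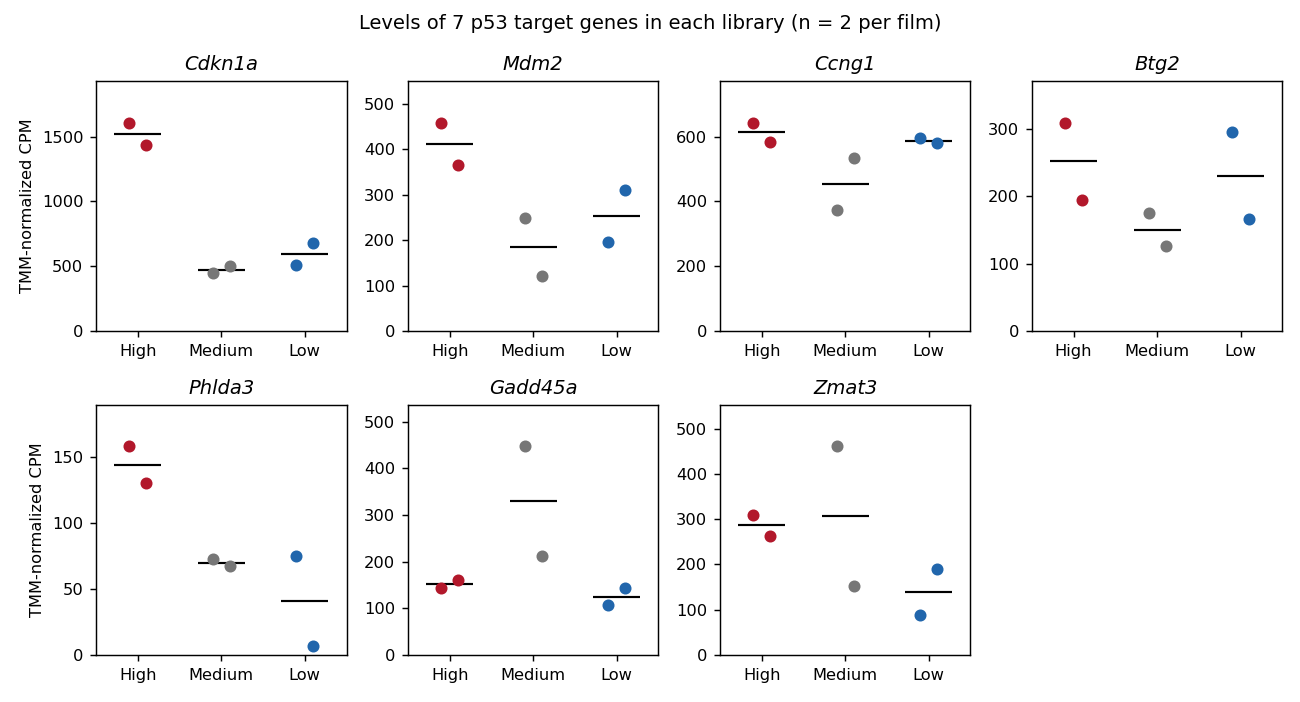
Each panel shows 1 gene of the 7 tested targets, with TMM-normalized CPM on the vertical axis from 0 and the film on the horizontal axis. Points are libraries (2 per film) and bars are means. The High libraries of Cdkn1a lie at 1607 and 1432 CPM, above a highest value of 682 on the other films. Ccng1 and Btg2 overlap between High and Low, with Medium under High, and Gadd45a is highest in Medium.

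Mdm2, the ubiquitin ligase that closes the feedback loop on p53, was at 458 and 366 CPM on High, 250 and 121 on Medium and 197 and 310 on Low. All 4 Low and Medium libraries lay under both High libraries, though by little in Low replicate 2, and with library sizes alone the groups overlapped (283 CPM in High replicate 2 against 338 in Low replicate 2). The log2 fold change was −0.93 (standard error 0.40) and ran from −1.23 to −0.73 with each library left out in turn. Replicates differed by 2.07-fold in Medium, where the mean of High was 2.22-fold that of Medium, and by 1.58-fold in Low, where it was 1.63-fold that of Low.

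Phlda3, which competes with AKT for membrane lipids and so restrains survival signaling, was at 158 and 130 CPM on High, 72.6 and 66.9 on Medium and 74.9 and 6.88 on Low. The 4 Low and Medium libraries again lay under both High libraries. The log2 fold change of −1.43 had a standard error of 0.96, since the Low replicates differed by 10.9-fold, and it was −0.99 without Low replicate 2 and −2.71 without Low replicate 1. Thus 3 of the 7 genes tested (Cdkn1a, Mdm2 and Phlda3) had both High libraries on top, where 10.1% of all rows had this arrangement. Leaving out Cdkn1a, whose difference was known when the list was chosen, it was 2 of 6. With library sizes alone it was 2 of 7 (Cdkn1a and Phlda3), against 6.15% of all rows.

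Ccng1 and Btg2, which also slow proliferation, overlapped between High and Low, while both Medium libraries lay under both High libraries. The log2 fold change of Medium against High was −0.43 (standard error 0.30) for Ccng1 and −0.74 (0.53) for Btg2. With library sizes alone Medium and High overlapped for both genes. Ccng1, or cyclin G1, a p53 target that acts with a phosphatase on Mdm2, was at 643 and 585 CPM on High, 375 and 534 on Medium and 595 and 580 on Low. The Low libraries lay within or next to the range of High, and the log2 fold change of −0.25 (standard error 0.26) turned to 0.14 with library sizes alone and ran from −0.40 without Medium replicate 2 to −0.13 without Medium replicate 1. Btg2, an antiproliferative gene that marks neurogenic divisions of neural progenitors, was at 309 and 195 CPM on High, 175 and 126 on Medium and 295 and 166 on Low. Low replicate 1 lay between the High libraries, and the log2 fold change of −0.44 (standard error 0.45) was −0.07 without High replicate 1 and −0.73 without High replicate 2.

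Gadd45a and Zmat3 had their highest values in Medium replicate 1. Gadd45a, a growth arrest gene that binds PCNA and takes part in DNA repair and demethylation, was at 144 and 162 CPM on High, 447 and 213 on Medium and 106 and 144 on Low. Both Medium libraries lay above High and both Low libraries at or under it. Its log2 fold change was 1.11 (standard error 0.54) for Medium and −0.29 (0.53) for Low against High, and for Low and Medium together it was 0.41, or 0.10 when Medium replicate 1 was left out. Zmat3, an RNA-binding zinc finger protein, was at 310 and 263 CPM on High, 461 and 152 on Medium and 87.2 and 190 on Low. The Medium replicates lay on either side of High, 3.03-fold apart, and the log2 fold change of −0.47 (standard error 0.51) ran from −0.98 without Medium replicate 1 to −0.20 without Medium replicate 2.

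**Figure D2:**
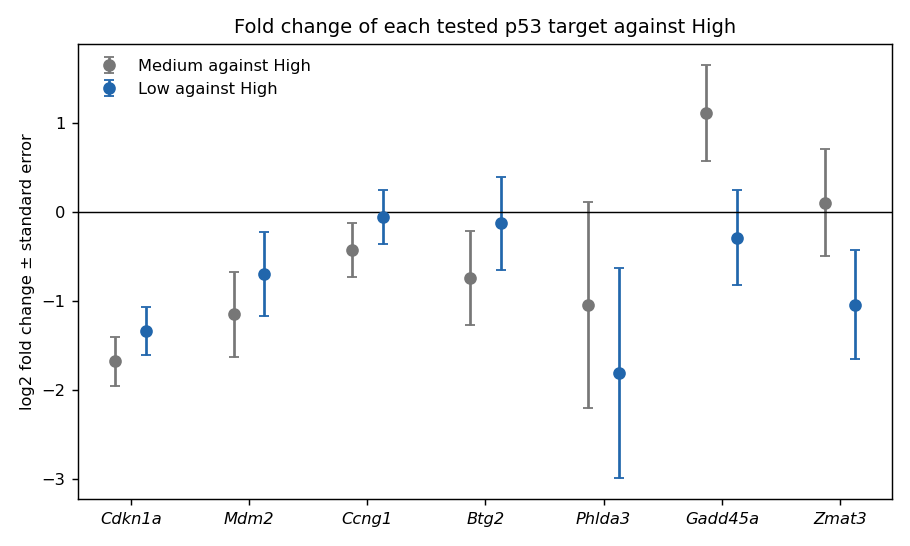
The vertical axis gives the log2 fold change against High from the fit over all rows, with bars of 1 standard error, for Medium (grey) and Low (blue). Both comparisons use the same 2 High libraries. Cdkn1a is at −1.68 and −1.35, Ccng1 at −0.43 and −0.06, and Gadd45a lies on opposite sides of 0.

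Across the 7 genes, 6 had a negative log2 fold change for Low and Medium against High, where 54.1% of all rows did, and the median was −0.47 against −0.12 for all rows. With library sizes alone 5 of the 7 were negative, with a median of −0.07, while the median of all rows moved up by 0.38 to 0.26. Without Medium replicate 1 it was again 6 of 7, with a median of −0.98. Cdkn1a was known to be lower when the list was chosen. Of the 6 other genes, 5 were negative under TMM with all libraries, with a median of −0.46.

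The comparison of Cdkn1a with the other members can be made free of any scaling between libraries by dividing the counts of a gene by those of Cdkn1a in the same library. A ratio that is level across the films belongs to a gene that differs as Cdkn1a does. On the log2 scale the ratio of Ccng1 to Cdkn1a was −1.32 and −1.29 on High, −0.25 and 0.09 on Medium and 0.21 and −0.23 on Low, a difference of 1.26 between Low and Medium and High, with an SD of 0.23 between replicates. That of Gadd45a differed by 1.87 (SD 0.52), that of Btg2 by 1.08 (SD 0.60) and that of Zmat3 by 0.89 (SD 0.78). For Ccng1, Btg2 and Gadd45a all 4 Low and Medium libraries had a higher ratio than both High libraries, an arrangement found in 37.3% of the other 7728 rows, whose median difference was 1.34. Since Cdkn1a was known to be lower in Low and Medium, a higher ratio is what a row without a difference shows, and the ratios of Ccng1 and Btg2 moved about as those of all rows did. The ratio of Mdm2 to Cdkn1a differed by 0.54 (SD 0.51), about as much as replicates differed, with 3 of 4 libraries above High and Medium replicate 2 at −2.05 against −1.81 and −1.97 in High. That of Phlda3 differed by −0.30 (SD 1.54), and its direction rests on Low replicate 2.

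**Figure D3:**
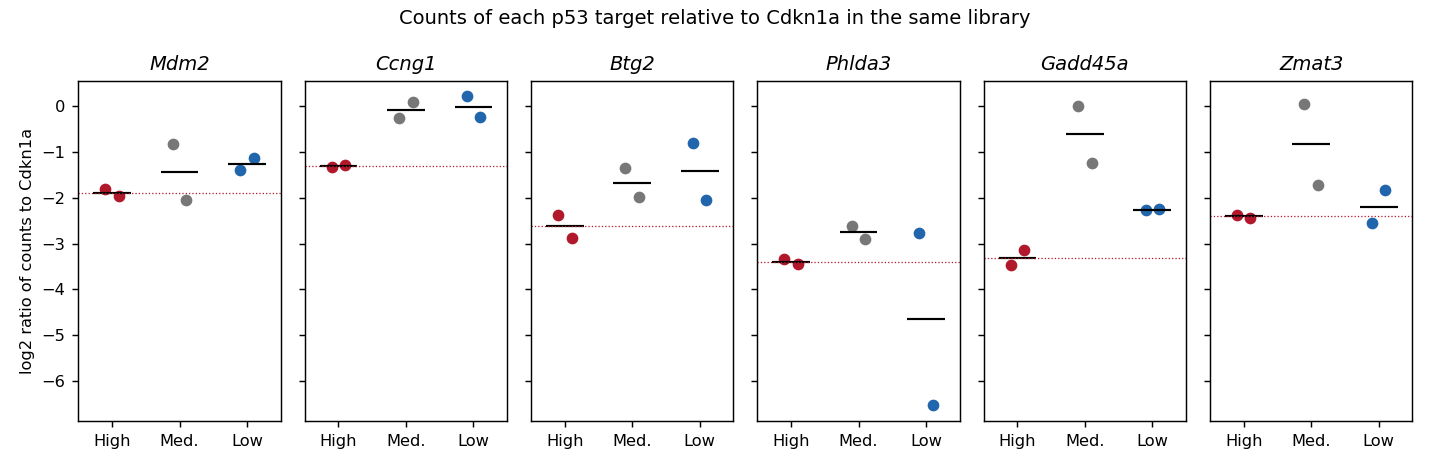
Each panel plots the log2 ratio of the counts of 1 gene to those of Cdkn1a in the same library, with 3 counts added to both, for 2 libraries per film. Bars are means and the dotted line is the mean of High. The ratio of Ccng1 is on average −1.31 in High, −0.08 in Medium and −0.01 in Low. That of Mdm2 overlaps between High and Medium, while both Low libraries lie above both High libraries.

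Over the 6 libraries the level of Mdm2 had a Pearson correlation of 0.799 with that of Cdkn1a, on the scale of log2(CPM + 1), and stood 278th among 6887 rows with a mean log2 CPM of at least 3. The correlation was 0.621 for Ccng1, 0.452 for Btg2, 0.395 for Phlda3, 0.307 for Zmat3 and −0.399 for Gadd45a. The 8 rows most like Cdkn1a were Hsp90aa1 (0.992), Hmox1 (0.987), RGD1309534 (0.983), Aars (0.977), Hsp90ab1 (0.975), Itpkc (0.973), Klhdc9 (0.972) and Phlda1 (0.970). Hsp90aa1 and Hsp90ab1 encode cytosolic HSP90 chaperones, Hmox1 encodes heme oxygenase 1 and Aars encodes the alanyl-tRNA synthetase, and none of the 8 is on the lists of p53 targets used here. Hsp90aa1 was at 2177 and 2274 CPM on High, 836 and 983 on Medium and 898 and 1171 on Low, with Low replicate 2 the highest of the 4 as for Cdkn1a. Itpkc had 135 and 128 counts in High and at most 1 elsewhere. These correlations describe 6 points that share the films and their libraries, and all 8 rows had both High libraries on top.

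**Figure D4:**
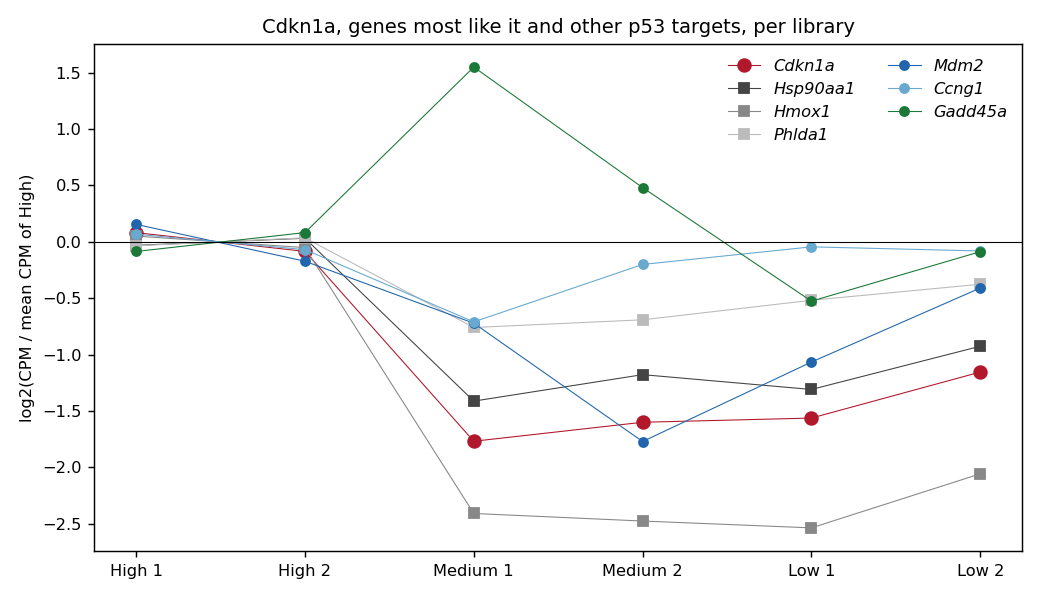
The vertical axis gives log2 of the CPM in a library over the mean CPM of High, and the horizontal axis the 6 libraries. Thin lines join the values of 1 gene and carry no order. Cdkn1a (large red circles) runs beside Hsp90aa1, with Hmox1 lower and Phlda1 higher, while Ccng1 stays near 0 in Low and Gadd45a is above 0 in Medium.

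Low and Medium were compared with each other, a contrast that did not lead to the list. edgeR called 0 of the 7 genes, beside 0% of all 7729 rows, and DESeq2 also called 0 of the 7, beside 1.33%. At an unadjusted p under 0.05 there was 1 gene, Gadd45a, where 1.51% of all rows passed. Gadd45a was lower in Low by a log2 fold change of −1.40 (95% interval −2.61 to −0.19), with both Low libraries under both Medium libraries and an adjusted p of 1 in edgeR's test (0.141 to 1 over the alternatives), and by −0.77 without Medium replicate 1. For Cdkn1a the log2 difference was 0.34, with a 95% interval from −0.26 to 0.93, and it was 0.12 without Low replicate 2 and 0.52 without Low replicate 1. The difference was 0.45 for Mdm2 (interval −0.60 to 1.51), 0.37 for Ccng1 (−0.31 to 1.05) and 0.61 for Btg2 (−0.56 to 1.79). With each library left out in turn it ran from 0.04 to 1.07 for Mdm2, from 0.14 to 0.67 for Ccng1 and from 0.14 to 0.97 for Btg2. These limits were those without Medium replicate 1 or 2 for Mdm2 and Ccng1, and without Low replicate 1 or 2 for Btg2. For Zmat3 it was −1.14 (−2.50 to 0.22), or −0.13 without Medium replicate 1 and −1.81 without Low replicate 2. Phlda3 differed by −0.77 (standard error 1.15), which turned to 0.10 without Low replicate 2.

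The regulators of p53 were listed beside its targets. Of 12 genes, 8 were tested for Low and Medium against High. Of these, 7 were lower and 1 higher (the same with library sizes alone), where 54.1% of all rows were lower. Several had 0 counts in some libraries. Their median log2 fold change was −2.60, or −0.80 after raising every library to 3 counts (all rows −0.12 and −0.17). edgeR called 0 of the 8 and DESeq2 1, and 1 had an unadjusted p under 0.05 in edgeR's test, beside 0.129%, 4.58% and 5.5% of all rows. That gene was Ppm1d, a phosphatase that is itself a p53 target and turns p53 signaling off. It had 169 and 407 counts on High, 0 and 12 on Medium and none on Low, and DESeq2 called it. Hipk2, a kinase that activates p53 and the most abundant of these genes, was at 381 and 236 CPM on High, 286 and 615 on Medium and 236 and 612 on Low. Rfwd2, which encodes the ubiquitin ligase COP1, was at 118 and 196 CPM on High, 22.8 and 170 on Medium and 93.7 and 144 on Low. Rchy1, another ubiquitin ligase for p53, was at 107 and 29.3 CPM on High and from 23.3 to 46.2 on the other films. All 3 overlapped between the films. Mdm4, a partner of Mdm2 in the inhibition of p53 that is named here after its values were seen, had 484 and 312 counts on High, 0 and 242 on Medium and 0 and 10 on Low.

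Beyond the 9 genes, 36 further p53 targets were listed, of which 27 were tested. Ppm1d, a target that DESeq2 called lower, was counted with the regulators and is not among the 27. For Low and Medium against High 0 of these 27 were called by edgeR and 1 by DESeq2, with 11 higher and 16 lower and a median log2 fold change of −0.40, or −0.50 after raising every library to 3 counts (all rows −0.12 and −0.17). With library sizes alone 13 were higher and 14 lower, and without Medium replicate 1 the split was again 11 and 16. At an unadjusted p under 0.05 there were 2 higher (Rps27l and Plk2) and 1 lower (Sesn2). Of all rows, edgeR called 0.129%, DESeq2 called 4.58% and 5.5% had an unadjusted p under 0.05. Rps27l, a ribosomal protein-like gene and the most abundant of these targets, was at 1795 and 1675 CPM on High, 3082 and 2350 on Medium and 2780 and 2920 on Low. It was higher in 4 of 4 libraries, and it was the gene that DESeq2 called, but not edgeR (log2 fold change 0.68, standard error 0.19, adjusted p 0.531). Plk2, a stress-induced polo-like kinase, was at 88.0 and 58.9 CPM on High, 460 and 89.4 on Medium and 216 and 186 on Low (log2 fold change 1.68, standard error 0.68). Sesn2, a sestrin that restrains mTORC1 and is also induced by ATF4, had 916 and 1774 counts on High, 646 and 388 on Medium and 0 and 61 on Low. Pcna, the sliding clamp of DNA replication, was at 166 and 196 CPM on High, 433 and 202 on Medium and 254 and 179 on Low. Both Medium libraries lay above High, and Low overlapped High, but not with library sizes alone (147 and 151 on High, 195 to 492 on the others).

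Of 12 targets in cell death, 10 were tested for Low and Medium against High, with 7 lower and 3 higher, where 54.1% of all rows were lower. Among these 10, 0 had an unadjusted p under 0.05 in edgeR's test or were called by DESeq2, beside 5.5% and 4.58% of all rows. With library sizes alone 5 were lower and 5 higher, and without Medium replicate 1 it was 6 and 4. Aen, an apoptosis-enhancing nuclease, was at 257 and 157 CPM on High, 93.5 and 64.8 on Medium and 60.4 and 127 on Low, with both High libraries on top under TMM but not with library sizes alone. Ei24, a protein of the endoplasmic reticulum, had the same arrangement, at 214 and 332 CPM in High and from 70.0 to 188 on the other films. Under TMM it was found in 2 of the 10 rows, where 10.1% of all rows had it. With library sizes alone it was found in 0 of the 10, against 6.15% of all rows. Bbc3, which encodes the BH3-only killer PUMA, was at 538 and 261 CPM on High, 447 and 73.6 on Medium and 195 and 201 on Low, and Medium replicate 1 lay between the High libraries.

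**Figure D5:**
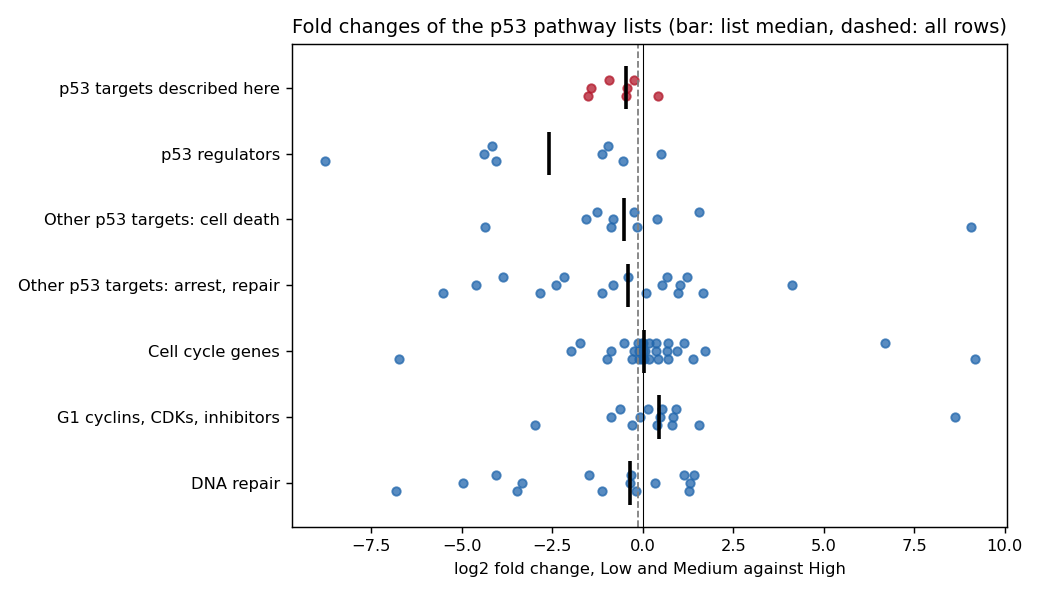
The horizontal axis is the log2 fold change of Low and Medium against High, and each point is 1 tested row of a list. Bars are list medians and the dashed line is the median of all 7729 rows (−0.12). The 7 p53 targets have a median of −0.47 and the cell cycle genes a median of 0.04.

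Genes that p21 is known to hold down were examined as well, through a list of 32 S phase and mitosis genes, of which 31 were tested. For Low and Medium against High 0 were called by edgeR, 18 were higher and 13 lower (25 and 6 with library sizes alone, 19 and 12 without Medium replicate 1, but 15 and 16 with RLE size factors). The median of 0.04 lay near that of all rows (−0.12), and was −0.03 with RLE size factors and −0.12 after raising every library to 3 counts. An unadjusted p under 0.05 was reached by 2 genes, both higher and both called by DESeq2, beside 5.5% and 4.58% of all rows. Birc5, the mitotic survival factor survivin, was at 150 and 129 CPM on High, 309 and 738 on Medium and 510 and 290 on Low (log2 fold change 1.72, standard error 0.45), and edgeR did not call it (adjusted p 0.468). Ccna2, or cyclin A2, had 0 and 6 counts on High, 401 and 116 on Medium and 765 and 879 on Low. Cdc20, an activator of the anaphase-promoting complex, was at 239 and 211 CPM on High, 266 and 274 on Medium and 552 and 434 on Low. In the whole list 4 of 31 rows had every Low and Medium library above both High libraries, these 3 and Aurkb (0 counts in both High libraries), where 8.06% of all rows did. The opposite arrangement was found in 1 row, Tyms, with 77 and 256 counts on High, 43 and 27 on Medium and none on Low, where it was found in 10.1% of all rows. Aurkb and Tyms are named after their values were seen. The abundant Ube2c overlapped between the films, from 219 to 299 CPM in High and from 224 to 385 on the others, but not with library sizes alone (194 and 231 against 254 to 428). With that scaling 6 of the 31 rows lay above both High libraries, where 1081 of all 7729 rows did.

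Among the kinase partners of p21 and the other inhibitors, 14 of 17 genes were tested. For Low and Medium against High 9 were higher and 5 lower, where 54.1% of all rows were lower. With library sizes alone it was 11 and 3, and without Medium replicate 1 it was 8 and 6. Of the 14 genes, 0 had an unadjusted p under 0.05 in edgeR's test or were called by DESeq2, beside 5.5% and 4.58% of all rows. Ccnd1, or cyclin D1, the most abundant of them, was at 2918 and 4004 CPM on High, 3076 and 3148 on Medium and 3567 and 3312 on Low, and its films overlapped, but not with library sizes alone, where all 4 Low and Medium libraries lay above High. Ccnd2, or cyclin D2, was at 235 and 183 CPM on High, 278 and 235 on Medium and 414 and 180 on Low. Cdkn2b, an inhibitor of CDK4 and CDK6, was at 391 and 311 CPM on High, 222 and 347 on Medium and 253 and 310 on Low. Of 18 genes for the recognition and repair of DNA damage, 15 were tested. For Low and Medium against High 10 were lower and 5 higher, where 54.1% of all rows were lower. With library sizes alone it was 7 and 8, and without Medium replicate 1 it was 8 and 7. Of the 15 genes, 0 had an unadjusted p under 0.05 in edgeR's test or were called by DESeq2, beside 5.5% and 4.58% of all rows. Parp1, which senses strand breaks and was the most abundant of them, was at 225 and 52.5 CPM in High and from 112 to 255 on the other films. Rad50 and Nbn, of the complex that binds double-strand breaks, were at 40.2 and 112 and at 69.8 and 145 CPM in High, and from 9.42 to 109 and from 0 to 124 on the other films. Parp1 and Rad50 overlapped between the films, and so did Nbn between High and Low, with both Medium libraries (0 and 26.4 CPM) under High. In the whole list 3 of 15 rows (H2afx, Lig4 and Ercc6) had both High libraries on top, where 10.1% of all rows did. The opposite arrangement was found in 0 rows, against 8.06% of all rows. With library sizes alone 2 of 15 rows (Lig4 and Ercc6) had High on top, where 6.15% of all rows did. For Low against High, DESeq2 called 3.38% of all rows, and from these lists it also called Atm, a kinase that activates p53, Tyms, Mdc1 and Lig4 lower and Cdc20 higher. The 4 lower rows had 0 counts in both Low libraries, and Atm had 49 and 119 counts on High and 703 and 8 on Medium. It called Atm and Mdc1 lower for Low against Medium too, where it called 1.33% of all rows. Atm, Mdc1, Lig4, H2afx and Ercc6 are named after their values were seen.

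Some features of the libraries moved with the film. The share of ribosomal RNA rows was 26.1% and 38.4% on High, 7.27% and 13.04% on Medium and 7.16% and 7.64% on Low, and the log2 fold change of Cdkn1a was −1.52 with these rows removed. The log2 fold changes of the other members moved by little when they were removed, with Mdm2 at −0.94 and Ccng1 at −0.26, and none changed direction. The neural stem and radial glia markers were present, with 6 of 7 detected and Hes5 at 0, and their summed level was 2882 and 2669 CPM on High, 4674 and 4264 on Medium and 3768 and 5022 on Low, led by Vim. edgeR called 0 of these 6 for Low and Medium against High and DESeq2 called 3 (Nes, Sox2 and Vim), all higher, beside 0.129% and 4.58% of all rows. Of the 6, 5 had a positive log2 fold change and 1, Fabp7, a negative one (−0.60), and the split was the same with library sizes alone. Markers of neurons summed to at most 33.9 CPM in a library, with Rbfox3 at 0 and Tubb3 the most abundant, found in Low alone. Microglial markers summed to at most 37.7 CPM, led by Cd68, with Cx3cr1 and Csf1r at 0. Astrocyte markers summed to 51.4 to 178 CPM, led by Gja1, with Aqp4 and Aldh1l1 at 0. Oligodendrocyte lineage markers summed to 326 and 357 CPM on High, 510 and 548 on Medium and 748 and 619 on Low, led by Olig2, which DESeq2 but not edgeR called higher for Low and Medium against High, with Sox10 at 0. Meningeal and vascular markers summed to 392 CPM in Medium replicate 2 and to at most 35.8 in the others, led by Col1a1, with Dcn, Pecam1, Cdh5 and Pdgfrb at 0. The part of these differences in marker levels in the p53 target values was not tested, and in bulk RNA fewer cells of a type and less RNA per cell cannot be told apart.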

How the data were processed

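The authors aligned QuantSeq single-end reads with Bowtie2 (version not given in the sources used here) and took counts per gene from Bedtools coverage, with reads that align in several places included, so that near-identical genes share reads. The submitters' processing notes name the genome build rn6. The deposited values are raw whole-number counts, 1 table per library, and 0 columns of other samples were present. Strand setting and duplicate removal are not given in the sources used here. Without molecular identifiers, limits from counts cover counting error only. Nothing says that the libraries of a film were separate cultures, so p-values measure the spread between these libraries.

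With edgeR 4.0.16 in R 4.3.3, filterByExpr left 7729 rows, which were TMM-scaled and tested together by quasi-likelihood in 1 model of 3 film means, adjusted by Benjamini-Hochberg. Low and Medium against High sets the average of those film means against High, and both single contrasts share its High libraries. Alternatives were DESeq2 1.42.0, other scalings and filters, a replicate block and each library left out in turn. The script was tested on simulated data.

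The members, lists and rules were chosen with earlier results of these data known. Named are all members, the rows most like Cdkn1a and, from each list, rows that edgeR called, rows at an unadjusted p under 0.05 whose films do not overlap, and the 3 most abundant. RefSeq promoters (GRCr8) were searched on both strands; the counts were made on rn6, and no coordinates were carried over. A result that the rule names is not reported here.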

Additional observations from a re-analysis of the deposited data

How the results depend on the processing

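Cdkn1a kept its direction against High in all 13 alternatives (−1.62 to −1.13), the value nearest 0 being that with library sizes alone. The median of the members ran from −0.98 to −0.07, and 6 of 7 members were lower in every alternative but library sizes alone, where 5 were. This count, and the counts of each list without Medium replicate 1, were added after the data were seen. Ccng1 turned from −0.25 to 0.14 with library sizes alone. For Low against Medium, Phlda3 turned from −0.77 to 0.10 without Low replicate 2 and was −3.34 without Low replicate 1. The cause of these changes was not tested. No other member changed direction in either contrast.

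The number of rows called moved far more, and its cause was not tested. The biological coefficient of variation between libraries of 1 film was 1.43. DESeq2's counts in this paragraph are over every row with a count, not the 7729 rows to which the shares given earlier refer. For Low and Medium against High it was 10, and 370 with DESeq2, 68 without a filter, 56 with at least 10 counts on average, and 34 to 242 with each library left out in turn, the highest without Medium replicate 2. For Low against High it was 4, and 271 with DESeq2, 0 with library sizes alone, 2 without ribosomal RNA rows, 34 without a filter, 30 with at least 10 counts on average, and 19 to 65 with libraries left out, the highest without Low replicate 2. For Medium against High it was 1, and 302 with DESeq2, 0 with library sizes alone, 48 without a filter, 40 with at least 10 counts on average, and 11 to 275 with libraries left out, the highest without Medium replicate 2. For Low against Medium it was 0, and 121 with DESeq2, 5 without a filter, and 0 to 194 with libraries left out, the highest without Medium replicate 2. Where a film was left with 1 library, that library was taken to vary like those of the other films.

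With a replicate block the counts were 57 for Low and Medium, 30 for Low and 39 for Medium against High, and 0 for Low against Medium, and Cdkn1a was at −1.52. The labels give same-numbered libraries no link other than the number. Their deviations correlated at 0.00342 to 0.00733, which cannot show whether they shared a preparation, since the spread between replicates was wide.

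Depth limits the low members. At 3 counts as the limit of a 0, Rrm2b and Tp53inp1 could not be compared, and the p53 targets at 0 in several libraries carry fitted changes that depend on the prior count.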

Other observations

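Genes of the NRF2 response and heat shock genes were measured in the same libraries. Both lists were chosen with results of these data known, so their differences against High are given as a description. Of 10 NRF2 targets, 9 were lower for Low and Medium against High and 1 higher. Their median was −1.96 on the log2 scale against −0.12 for all rows, and edgeR called 1 (Hmox1, which degrades heme) and DESeq2 3, beside 0.129% and 4.58% of all rows. Hmox1 was at 5056 and 4711 CPM on High, 919 and 878 on Medium and 842 and 1173 on Low, and its log2 fold change was −2.36 (standard error 0.19). Txnrd1, a thioredoxin reductase, was at 807 and 652 CPM on High and from 189 to 343 on the other films. Srxn1, or sulfiredoxin, was at 264 and 343 CPM on High and from 7.55 to 35.4 on the others, and Slc7a11, the cystine transporter, at 327 and 481 and from 11.3 to 137. Gclm, which takes part in glutathione synthesis, was at 248 to 256 CPM on High, with Medium on either side (425 and 123). Its Low libraries (43.9 and 192) lay under High, but overlapped High with library sizes alone.

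Among 12 rows of 10 heat shock genes, 10 were lower and 2 higher, with a median of −1.04 against −0.12 for all rows. edgeR called 1, Hspa1b, and DESeq2 called 6, of which 4 were lower (Hspa1b, Hsph1, Dnaja1 and Hsp90aa1) and 2 higher (Hspd1 and Hspe1), beside 0.129% and 4.58% of all rows. This inducible HSP70 was at 1014 and 601 CPM on High and from 2.92 to 32.5 on the other films (log2 fold change −5.30, standard error 0.72), though its near-identical copy Hspa1a could share these reads. Hsph1, a partner of HSP70, was at 754 and 590 CPM on High and from 223 to 251 on the others. Dnaja1, a J-domain partner of HSP70, was at 694 and 690.4 CPM on High, 597 and 339 on Medium and 269 and 338 on Low, and Medium overlapped High with library sizes alone. The 2 higher rows were Hspd1 and Hspe1, the mitochondrial chaperonins. Hspd1 was at 479 and 294 CPM on High and from 562 to 774 on the others, and Hspe1 at 734 and 597 and from 866 to 1249. Both were above High in 4 of 4 libraries, also with library sizes alone. With that scaling 9 rows of the list were lower and 3 higher.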
